A study of Arabidopsis thaliana with 2 samples.

Results

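Lipid transfer proteins of Arabidopsis thaliana were followed in 10-day seedlings, in 1 RNA library of the crwn1 crwn2 double mutant and 1 library of wild type. The genes are the loci whose product name contains "lipid transfer protein" or "lipid-transfer protein", which 72 of the 21808 loci with reads in either library do. Of these, 9 lie in 2 runs of 10 loci on chromosome 4 that were left out because their levels in these libraries were already known, and the other 63 are described here. The tenth locus of the runs, AT4G12470, does not carry the name. All 10 were called higher in crwn1 crwn2, with 6132 reads in crwn1 crwn2 and 847 reads in wild type. The choice of the 63 genes therefore used values of this comparison, and what follows is a description with no test.

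Both libraries were made from polyadenylated RNA of whole seedlings grown for 10 days. The mutant lacks CRWN1 and CRWN2, long coiled-coil proteins of the nuclear lamina that line the inner face of the nuclear envelope. The labels name no alleles and do not say how many seedlings were pooled. The crwn1 crwn2 library held 2203650 uniquely placed reads and the wild-type library 2094440, with a median of 26 reads per listed locus in crwn1 crwn2 and 24 in wild type. CRWN1 had 57 reads in crwn1 crwn2 and 1021 in wild type, and CRWN2 had 9 in crwn1 crwn2 and 148 in wild type. Each genotype has 1 library, so no difference could be set against the spread between replicates. Intervals cover counting error only, and genotype, harvest and library preparation cannot be told apart.

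Non-specific lipid transfer proteins are small, secreted, cysteine-rich proteins. Their cysteines pair into disulfide bonds that hold a bundle of helices around a hydrophobic cavity, in which a fatty acid, a lysolipid or a wax monomer can be carried. In land plants they are known for work at the cell surface, where they take part in building the cuticle and suberin, and some act in defence signalling. Members with a lipid anchor at the C terminus stay on the outer face of the plasma membrane. Glycolipid transfer proteins are unrelated in sequence: they work in the cytosol and carry sphingolipids between membranes.

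The product names were checked against the reading frames of the reference annotation. A pattern of 8 cysteines, in the order C, C, CC, CXC, C, C, was present in 55 of the 63 predicted proteins. Of the other 8 genes, 5 are glycolipid transfer proteins (GLTP1, GLTP2, GLTP3, ACD11 and AT4G39670), which matched the name search only because "glycolipid transfer protein" contains the searched words. The remaining 3, AT3G52130, AT4G22460 and AT5G59330, lacked the complete pattern and had 0 to 3 reads in each library. In the 55 proteins the number of residues between the CC pair and the CXC motif was 8 to 19, and 19 of the 55 carried 45 to 96 residues after the last cysteine.

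The coding sequences of the cysteine pattern in 5 genes of different structural classes are shown first. Most classes below are defined by the distance from the adjacent cysteine pair to the CXC motif. Glycolipid transfer genes, genes without the complete pattern and genes with 40 or more residues after it were set apart first, whatever that distance. They are written 5′ to 3′ on the coding strand of the TAIR10 build, with the 8 cysteine codons in capitals, and come from the RefSeq annotation of TAIR10.1, whose chromosome sequences were matched to the coordinates of the files. LTP4 (AT5G59310, chr5:23925449-23925694, minus strand) has the 19-residue gap, DIR1 (AT5G48485, chr5:19646320-19646538, minus strand) a 9-residue gap, and AT2G37870 (chr2:15859358-15859606, plus strand) a 12-residue gap. AT5G46900 (chr5:19039960-19040196, minus strand) has a 13-residue gap, and AT3G22620 (chr3:8008699-8008938, plus strand) a 12-residue gap and 95 further residues after the pattern.
LTP4: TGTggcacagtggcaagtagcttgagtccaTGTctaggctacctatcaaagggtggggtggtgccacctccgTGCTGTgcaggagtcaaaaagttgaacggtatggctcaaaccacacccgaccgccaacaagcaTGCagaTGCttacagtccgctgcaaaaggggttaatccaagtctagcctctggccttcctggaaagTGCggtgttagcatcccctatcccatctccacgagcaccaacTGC
DIR1: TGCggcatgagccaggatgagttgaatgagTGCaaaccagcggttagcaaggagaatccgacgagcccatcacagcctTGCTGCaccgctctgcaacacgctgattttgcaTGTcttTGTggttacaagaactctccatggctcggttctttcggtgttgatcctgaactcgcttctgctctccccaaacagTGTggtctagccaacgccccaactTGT
AT2G37870: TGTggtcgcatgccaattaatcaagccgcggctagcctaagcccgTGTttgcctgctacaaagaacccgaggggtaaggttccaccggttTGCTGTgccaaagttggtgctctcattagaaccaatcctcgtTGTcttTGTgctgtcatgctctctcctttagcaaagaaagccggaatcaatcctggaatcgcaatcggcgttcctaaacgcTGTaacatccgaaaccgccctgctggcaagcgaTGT
AT5G46900: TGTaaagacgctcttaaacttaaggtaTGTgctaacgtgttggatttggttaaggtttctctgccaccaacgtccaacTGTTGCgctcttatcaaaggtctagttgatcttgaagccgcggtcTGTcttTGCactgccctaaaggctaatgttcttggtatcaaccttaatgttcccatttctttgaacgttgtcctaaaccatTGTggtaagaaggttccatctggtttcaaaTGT
AT3G22620: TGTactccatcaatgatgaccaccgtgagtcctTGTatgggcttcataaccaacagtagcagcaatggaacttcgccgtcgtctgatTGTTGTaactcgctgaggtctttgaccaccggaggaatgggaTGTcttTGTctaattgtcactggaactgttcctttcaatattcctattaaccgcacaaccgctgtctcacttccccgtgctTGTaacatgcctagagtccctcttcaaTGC

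**Figure D1:**
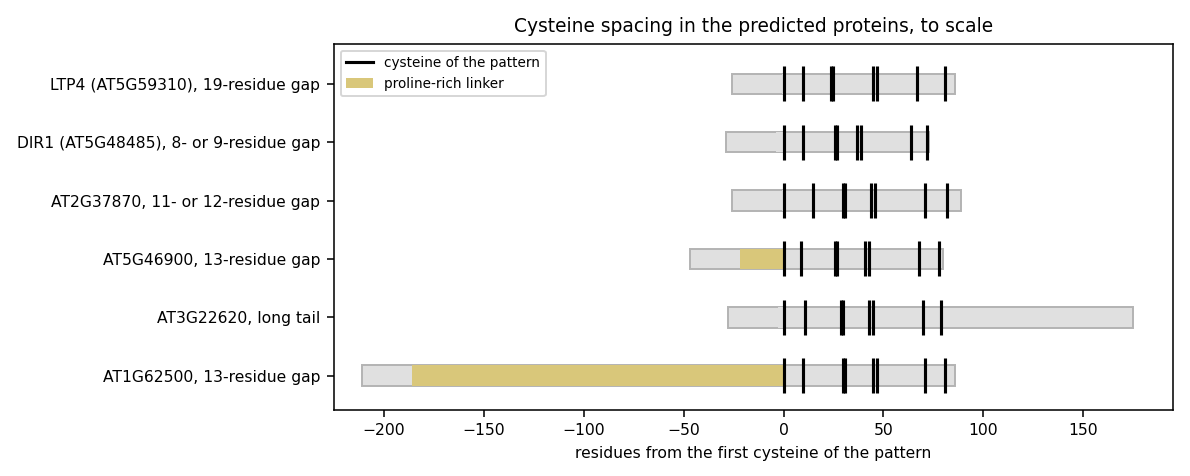
Predicted proteins of 6 lipid-transfer-like genes drawn to scale, with the horizontal axis in residues from the first cysteine of the pattern. Grey bars are whole proteins, black ticks the 8 cysteines and yellow the proline-rich stretch before the pattern, which is 22 residues long in AT5G46900 and 186 in AT1G62500, while AT3G22620 ends in a tail of 95 residues.

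A gene was counted as measured when it reached an RPKM (reads scaled to model length and library total) of 1 and 10 reads in at least 1 library, and 45 of the 63 genes did. The other 18 had at most 9 reads in either library. A measured gene was called when the log2 ratio of RPKM + 1, crwn1 crwn2 over wild type, was at least 2-fold and the exact 95% interval of the read ratio excluded equality. Of the 45 measured genes 15 were called higher in crwn1 crwn2 (33.3%) and 4 lower (8.89%), and 26 were not called. Among all 14393 measured loci, 6.34% were called higher and 4.53% lower. The median log2 ratio was 0.56 over the 45 genes and 0.12 over all measured loci, and 29 of the 45 lay above 0, as did 59.4% of all measured loci. The measured genes include those that passed the expression floor only through the library in which they were high, and the dropped clusters were removed for their values, so these counts were not used as evidence about the family.

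In bulk RNA of whole seedlings, more cells of a type and more RNA per cell cannot be told apart. Summed over the 63 genes the libraries were close, with 11071 reads in crwn1 crwn2 and 10799 in wild type, or 0.502% of all reads in crwn1 crwn2 and 0.516% in wild type. The largest share of that sum was that of AT2G45180, which held 43.7% of the family's reads in crwn1 crwn2 and 54.8% in wild type. Without it the remaining 62 genes had 6230 reads in crwn1 crwn2 and 4880 in wild type, or 0.283% of all reads in crwn1 crwn2 and 0.233% in wild type.

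**Figure D2:**
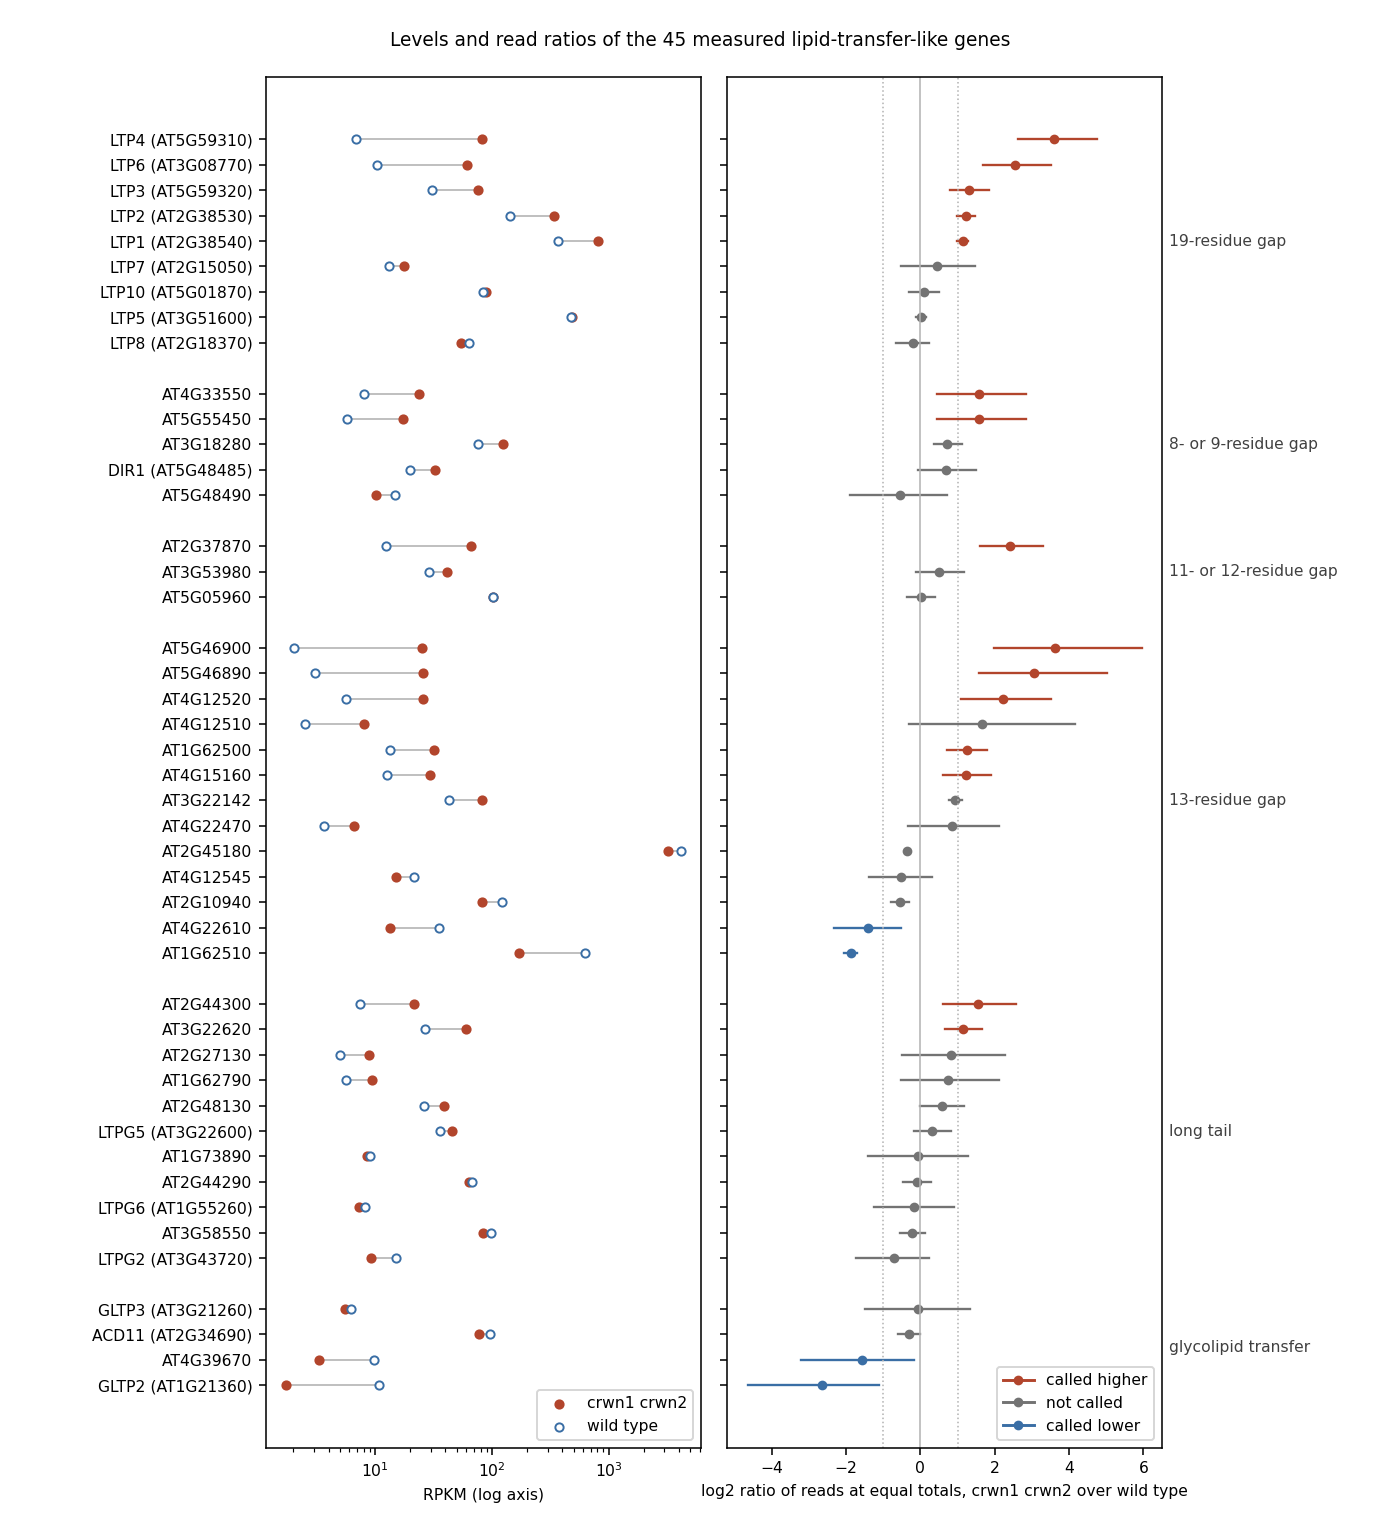
Levels and read ratios of the 45 measured genes, grouped by structural class. Left, RPKM on a log axis with filled points for crwn1 crwn2 and open points for wild type, 1 library each; right, log2 ratio of reads at equal library totals, crwn1 crwn2 over wild type, with exact 95% intervals (lines), coloured by call. LTP4, at 82.1 RPKM in crwn1 crwn2 and 6.82 in wild type, lies farthest to the right among the 19-residue class, and AT1G62510 is the abundant gene farthest to the left.

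The 19-residue class held 5 of the 15 higher calls. It has 10 genes. They are the genes described here that the reference annotation lists in the pathogenesis-related family PR-14, namely LTP1 to LTP8, LTP10 and LTP11. Any PR-14 genes outside those described here are not counted. All 10 predicted proteins are short, at 112 to 123 residues, and have a charged or polar residue in the middle of the CXC motif, which is arginine in 7. Over the class there were 3094 reads in crwn1 crwn2 and 1772 in wild type. Of its 9 measured genes 5 were called higher and none lower. Their median log2 ratio was 1.14, with a range of -0.20 to 3.41, and LTP11 had 2 reads in crwn1 crwn2 and 1 in wild type. For this and the following classes, the shares over all measured loci were 6.34% called higher and 4.53% lower.

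LTP4, which the annotation describes as responsive to abscisic acid and water deprivation, had 114 reads in crwn1 crwn2 and 9 in wild type (82.1 RPKM in crwn1 crwn2 and 6.82 in wild type). Its log2 ratio was 3.41, the largest of the 45 genes, and the read ratio of 12 had an interval of 6.12 to 27.0. Reads covered 92.1% of the LTP4 model in crwn1 crwn2 and 48.1% in wild type. Its neighbour LTP3 (AT5G59320), with the same description, had 115 reads in crwn1 crwn2 and 44 in wild type, a log2 ratio of 1.29 and a read ratio of 2.48 (1.74 to 3.6). LTP4 and LTP3 thus stood at 82.1 and 76.6 RPKM in crwn1 crwn2, and at 6.82 and 30.8 in wild type.

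LTP6 (AT3G08770) had 80 reads in crwn1 crwn2 and 13 in wild type (60.9 RPKM in crwn1 crwn2 and 10.4 in wild type), a log2 ratio of 2.44 with a read ratio of 5.85 (3.23 to 11.5). Its reads covered only 23.7% of the model in crwn1 crwn2 and 14.6% in wild type, so its level rests on a part of the transcript.

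LTP1 and LTP2 were the most abundant genes of the class that were called. LTP1 (AT2G38540), which the annotation places in the outermost, epidermal layer, had 1266 reads in crwn1 crwn2 and 545 in wild type (814 RPKM in crwn1 crwn2 and 369 in wild type), a log2 ratio of 1.14 and a read ratio of 2.21 (2.0 to 2.45). It stood at rank 78 of all loci by RPKM in crwn1 crwn2 and at rank 270 in wild type. LTP2 (AT2G38530), linked in earlier work to the attachment of the cuticle to the cell wall, had 499 reads in crwn1 crwn2 and 202 in wild type (338 RPKM in crwn1 crwn2 and 144 in wild type), with a log2 ratio of 1.23 and a read ratio of 2.35 (1.99 to 2.78).

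The other 4 measured genes of the class were not called. LTP5 (AT3G51600), an abundant member known from pollen tube growth, had 803 reads in crwn1 crwn2 and 754 in wild type (485 RPKM in crwn1 crwn2 and 479 in wild type), a log2 ratio of 0.02 with a read ratio of 1.01 (0.92 to 1.12). LTP10 (AT5G01870) had 108 reads in crwn1 crwn2 and 96 in wild type, a log2 ratio of 0.10 (read ratio 0.80 to 1.42). LTP8 (AT2G18370) had 84 reads in crwn1 crwn2 and 92 in wild type, a log2 ratio of -0.20 (0.64 to 1.18). For LTP5, LTP10 and LTP8 the interval of the read ratio excludes a 2-fold difference in either direction. LTP7 (AT2G15050) had 23 reads in crwn1 crwn2 and 16 in wild type, a log2 ratio of 0.40, and its interval of 0.69 to 2.77 does not exclude one.

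The 8- or 9-residue class holds 7 genes, among them DIR1, which is needed for the long-distance signal of systemic acquired resistance. Of 5 measured genes 2 were called higher: AT4G33550 and AT5G55450, each with 28 reads in crwn1 crwn2 and 9 in wild type, at log2 ratios of 1.45 and 1.42 (read ratio 1.36 to 7.12 for each). Reads covered only 16.9% of the AT4G33550 model in crwn1 crwn2 and 15.8% in wild type. DIR1 had 41 reads in crwn1 crwn2 and 24 in wild type (32.6 RPKM in crwn1 crwn2 and 20.1 in wild type), a log2 ratio of 0.67 that was not called, with an interval of 0.96 to 2.81 that includes equality. Its neighbour AT5G48490, whose predicted protein is 71.3% identical to that of DIR1, had 10 reads in crwn1 crwn2 and 14 in wild type, with a log2 ratio of -0.52 (0.27 to 1.64). AT3G18280 was the most abundant gene of the class, with 164 reads in crwn1 crwn2 and 94 in wild type (125 RPKM in crwn1 crwn2 and 75.4 in wild type). Its log2 ratio of 0.72 was below 2-fold, with a read-ratio interval of 1.28 to 2.16 that excludes equality. AT1G73780 had 4 reads in crwn1 crwn2 and none in wild type, too few for a fold.

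Among the 4 genes with an 11- or 12-residue gap and a short tail, AT2G37870 was called higher. It had 84 reads in crwn1 crwn2 and 15 in wild type (66.5 RPKM in crwn1 crwn2 and 12.5 in wild type), a log2 ratio of 2.32 and a read ratio of 5.32 (3.05 to 9.93). The other 2 measured genes of the class were not called: AT5G05960 had 117 reads in crwn1 crwn2 and 110 in wild type (log2 ratio 0.02), and AT3G53980 had 54 in crwn1 crwn2 and 36 in wild type (log2 ratio 0.50, read ratio 0.92 to 2.24). The fourth gene, AT3G22570, had 9 reads in crwn1 crwn2 and 1 in wild type and did not reach the expression floor.

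The 15 genes with a 13-residue gap and a short tail were spread most widely among the classes, with log2 ratios from -1.87 to 3.11. In 11 of the 15 predicted proteins a stretch of at least 20 residues rich in proline precedes the cysteines, a build known from wall-associated hybrid proline-rich proteins. Of 13 measured genes 5 were called higher and 2 lower. The class had 6569 reads in crwn1 crwn2 and 7924 in wild type, most of them from AT2G45180.

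AT2G45180 stood among the most abundant transcripts of both libraries, at rank 8 by RPKM in crwn1 crwn2 and rank 6 in wild type. It had 4841 reads in crwn1 crwn2 and 5919 in wild type (3240 RPKM in crwn1 crwn2 and 4168 in wild type), a log2 ratio of -0.36 with a narrow read-ratio interval of 0.75 to 0.81. The difference was larger than the counting error and smaller than 2-fold. AT1G62510, the abundant gene with the lowest log2 ratio, had 312 reads in crwn1 crwn2 and 1089 in wild type (172 RPKM in crwn1 crwn2 and 632 in wild type), a log2 ratio of -1.87 (read ratio 0.24 to 0.31). It was the second most abundant of the 63 genes in wild type and ranked 5 in crwn1 crwn2. The annotation names shoot, cotyledon and leaf among its sites of expression.

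The other lower gene of the class was AT4G22610, noted in hypocotyl and root, with 16 reads in crwn1 crwn2 and 40 in wild type (13.5 RPKM in crwn1 crwn2 and 35.5 in wild type), a log2 ratio of -1.33 (0.20 to 0.69). AT2G10940 had 243 reads in crwn1 crwn2 and 339 in wild type, a log2 ratio of -0.55 that was not called. Its reads covered 7.03% of the deposited model in each library. AT4G12545 had 22 reads in crwn1 crwn2 and 30 in wild type, a log2 ratio of -0.49 (0.38 to 1.25).

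The higher genes of the class were led by AT5G46900 and AT5G46890. AT5G46900 had 39 reads in crwn1 crwn2 and 3 in wild type (25.2 RPKM in crwn1 crwn2 and 2.04 in wild type), a log2 ratio of 3.11 with a read ratio of 12.4 (3.93 to 62.5). AT5G46890 had 35 reads in crwn1 crwn2 and 4 in wild type, a log2 ratio of 2.71 (2.97 to 32.2). AT4G12520 followed with 39 reads in crwn1 crwn2 and 8 in wild type, a log2 ratio of 2.03 (2.13 to 11.5). AT1G62500, a gene whose promoter serves as a root cortex marker, had 102 reads in crwn1 crwn2 and 41 in wild type, a log2 ratio of 1.18 (1.63 to 3.49), and AT4G15160 had 72 in crwn1 crwn2 and 29 in wild type, also 1.18 (1.51 to 3.77). Reads covered 27.2% of the AT4G15160 model in crwn1 crwn2 and 26.75% in wild type.

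The values nearest to the 2-fold line came from this class and the next. AT3G22142, which encodes the longest predicted protein of the family at 1480 residues, had 812 reads in crwn1 crwn2 and 402 in wild type, and its log2 ratio of 0.93 fell just short of a call. AT3G22620 was just inside, at 1.13, and LTP1 lay next to it, at 1.14.

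The 19 genes with a long tail after the pattern include the membrane-anchored LTPG proteins, and the annotation gives 10 of them an anchor. Of the 19 genes 11 were measured, with 662 reads in crwn1 crwn2 and 528 in wild type over the class, and the median log2 ratio was 0.32. AT2G44300 was called higher with 40 reads in crwn1 crwn2 and 13 in wild type, a log2 ratio of 1.43 (1.53 to 5.96). AT3G22620 was called higher with 115 reads in crwn1 crwn2 and 49 in wild type, a log2 ratio of 1.13 (1.58 to 3.18). Its model overlaps 51 bases of AT3G22630 on the other strand, and reads there cannot be told apart because the sources used here give no strand.

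No long-tailed gene was called lower. LTPG2 (AT3G43720), which acts in wax export to the stem surface, had 16 reads in crwn1 crwn2 and 25 in wild type, a log2 ratio of -0.66 with an interval of 0.30 to 1.18 that includes equality. LTPG5 (AT3G22600) had 79 reads in crwn1 crwn2 and 60 in wild type (log2 ratio 0.32), and LTPG6 (AT1G55260) had 16 in crwn1 crwn2 and 17 in wild type (log2 ratio -0.14). AT3G58550, the most abundant gene of the class, had 136 reads in crwn1 crwn2 and 150 in wild type, a log2 ratio of -0.21 (0.68 to 1.09). The xylogen-type genes XYP1 and XYP2, whose relatives act in xylem differentiation in Zinnia, had 7 and 5 reads in crwn1 crwn2 and 2 and 3 in wild type, below the expression floor. LTPG2, LTPG6, XYP1 and XYP2 each have 2 listed models. Reads shared by the models may be uncounted, so their levels may be too low.

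**Figure D3:**
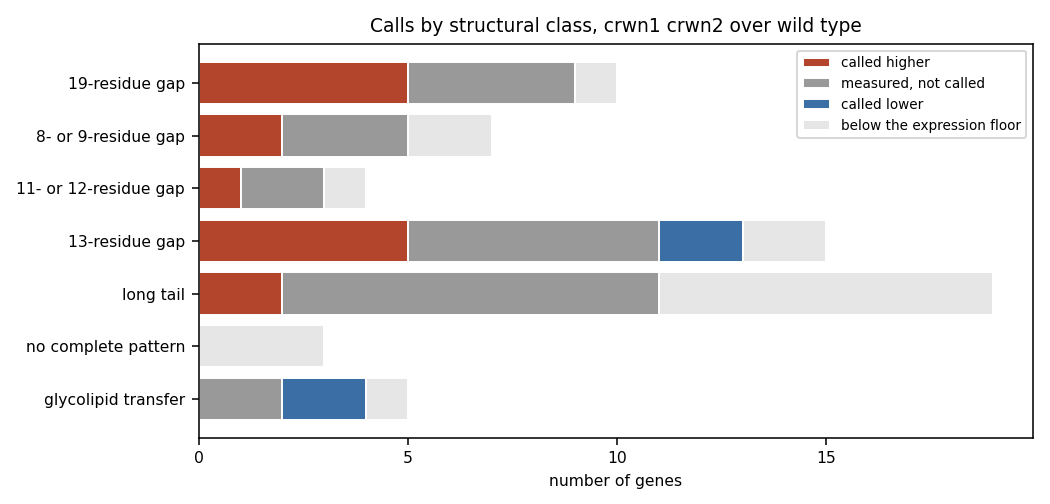
Number of genes in each structural class (bars, from 0), split into called higher in crwn1 crwn2 over wild type, measured but not called, called lower, and below the expression floor. The 19-residue class has 5 of 9 measured genes called higher and none lower, whereas 8 of 19 long-tailed genes are below the floor and 2 of 4 measured glycolipid transfer genes are called lower.

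The 5 glycolipid transfer genes are not of the cysteine-rich kind. All 4 measured ones had log2 ratios below 0, and 2 were called lower: GLTP2 (AT1G21360), with 4 reads in crwn1 crwn2 and 24 in wild type (log2 ratio -2.12, read ratio 0.040 to 0.46), and AT4G39670, with 6 in crwn1 crwn2 and 17 in wild type (log2 ratio -1.33, 0.11 to 0.89). ACD11, a ceramide-1-phosphate transfer protein whose loss causes accelerated cell death, was the abundant one, with 174 reads in crwn1 crwn2 and 205 in wild type and a log2 ratio of -0.31 (0.66 to 0.99). GLTP1 (AT2G33470) went the other way, with 7 reads in crwn1 crwn2 and 2 in wild type (log2 ratio 1.05), but was below the expression floor. Among all measured loci 59.4% had log2 ratios above 0 and 4.53% were called lower. Without these 5 genes, 15 of 41 measured genes were called higher and 2 lower, and the median log2 ratio was 0.67.

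Many members lie beside another member on the chromosome. Within 3 listed loci of each other there were 15 pairs, in 12 groups that hold 27 of the 63 genes. The loci left out at the start were not counted as neighbours. By identifier, AT4G12510 and AT4G12520 follow a run that was left out, and AT4G22460 and AT4G22470 precede the other. Of the 21 measured genes with such a neighbour 11 were called higher and 2 lower, and the median was 1.14 on the log2 scale. Of the 24 measured genes without one, 4 were called higher and 2 lower, with a median of 0.02. Over all measured loci 6.34% were called higher and 4.53% lower. Neighbours can be copies that share reads, so these genes are not independent of each other.

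In 9 pairs both genes were measured, and both were called higher in 3: LTP1 with LTP2, LTP3 with LTP4, and AT5G46890 with AT5G46900. In 4 pairs 1 gene was called and in 1, DIR1 with AT5G48490, neither was. AT1G62500 and AT1G62510 were called in opposite directions. These neighbours lie 2866 bp apart on chromosome 1, and their predicted proteins are 46.6% identical over the aligned residues. AT1G62500 had 31.7 RPKM in crwn1 crwn2 and 13.4 in wild type, and AT1G62510 had 172 in crwn1 crwn2 and 632 in wild type. AT2G44290 and AT2G44300, whose predicted proteins are 84.8% identical, were not both called. AT2G44290 had 124 reads in crwn1 crwn2 and 126 in wild type (log2 ratio -0.09), beside a log2 ratio of 1.43 for AT2G44300.

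**Figure D4:**
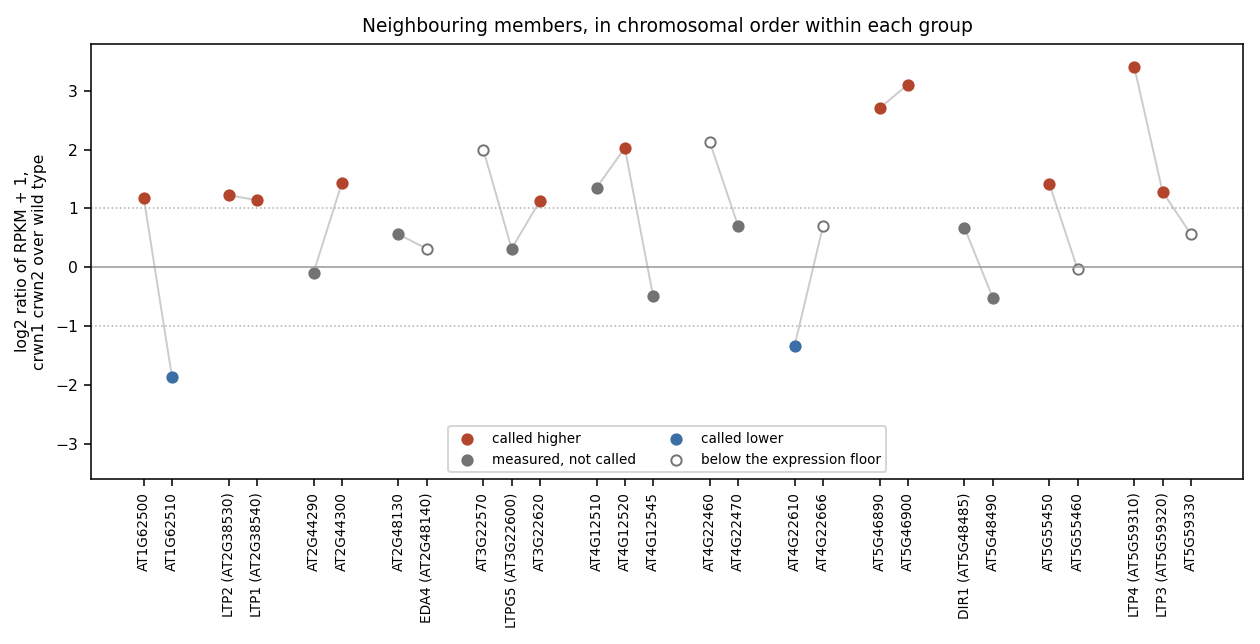
Log2 ratio of RPKM + 1, crwn1 crwn2 over wild type (vertical axis), of the 27 genes that have another member within 3 listed loci, in chromosomal order; grey lines join genes of 1 group and dotted lines mark 2-fold. LTP4 at 3.41 and LTP3 at 1.29 are joined on the right, and AT1G62500 at 1.18 and AT1G62510 at -1.87 on the left lie on opposite sides of 0.

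Copies that are too alike limit what unique reads can show. The predicted proteins of AT4G12510 and AT4G12520 are 100% identical, and their coding sequences differ at 2 of 390 bases, neither of which changes the protein. Both differing bases fall in the last 120 coding bases, written here with these bases in capitals on the coding strand (AT4G12510 at chr4:7417414-7417533 and AT4G12520 at chr4:7421279-7421398, both minus strand, TAIR10). AT4G12510 had 10 reads in crwn1 crwn2 and 3 in wild type, a log2 ratio of 1.35 whose interval of 0.82 to 17.9 includes equality, and reads covered 11.1% of its model in crwn1 crwn2 and 10.7% in wild type.
AT4G12510: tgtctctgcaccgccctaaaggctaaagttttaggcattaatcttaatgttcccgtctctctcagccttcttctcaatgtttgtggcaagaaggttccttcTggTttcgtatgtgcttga
AT4G12520: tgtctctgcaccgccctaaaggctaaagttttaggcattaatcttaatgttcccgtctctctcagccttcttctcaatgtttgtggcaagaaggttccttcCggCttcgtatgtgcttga

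AT5G46890 and AT5G46900 differ at 10 of 384 coding bases, share an exact run of 180 coding bases, and do not differ in the last 120. Stretches of 49 bases, the covered length of models with 1 read, were looked up in the whole genome. All of them were unique in 55 of the 63 genes. Fewer than 90% were unique in 7: AT4G12510 (37.9%), AT4G12520 (38.1%), AT5G46890 (71.9%), AT5G46900 (75.4%), XYP2 (82.1%), AT3G22142 (83.8%) and AT4G12545 (87.7%). Reads of these genes can be lost or exchanged between copies and their values are uncertain. Among the 39 measured genes with at least 90% unique stretches, 12 were called higher and 4 lower, and the median was 0.40 on the log2 scale. LTP1 to LTP4 were unique throughout.

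Calls fell among abundant and scarce genes, beside 6.34% higher and 4.53% lower over all measured loci. Among the 19 genes that reached 50 RPKM in either library, 7 were called higher and 1 lower, and the median was 0.10 on the log2 scale. Among the 26 measured genes below 50 RPKM, 8 were called higher and 3 lower, with a median of 0.61. Reads covered less than 50% of the model in both libraries in 14 measured genes, whose levels rest on a part of the transcript. Of these 14 genes 6 were called higher and 0 lower, with a median of 0.92. In 27 of the 63 genes both libraries had fewer than 20 reads, and a 2-fold difference in such a gene is often within counting error at this depth.

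Genes of the pathways in which lipid transfer proteins work were taken from lists, and each gene's identifier was checked in the reference table. The lists are small, and the shares over all measured loci were 6.34% called higher and 4.53% lower. Of 13 measured cutin genes 4 were called higher and none lower, and their median was 0.62 on the log2 scale. DCR, an acyltransferase needed for cutin, had 298 reads in crwn1 crwn2 and 47 in wild type (log2 ratio 2.50), HTH, an oxidoreductase-like enzyme of cutin monomers, had 40 in crwn1 crwn2 and 10 in wild type (1.55), and the regulator MYB106 had 14 in crwn1 crwn2 and 3 in wild type (1.41). ATT1, a fatty acid hydroxylase and the most abundant uncalled gene of that list, had 339 reads in crwn1 crwn2 and 468 in wild type (-0.53).

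Of 6 measured surface lipid exporters 2 were called higher, with a median log2 ratio of 0.22: ABCG13 had 31 reads in crwn1 crwn2 and 8 in wild type (1.42), and ABCG6 had 41 in crwn1 crwn2 and 14 in wild type (1.2). ABCG12, the wax exporter, had 425 reads in crwn1 crwn2 and 368 in wild type (0.13). Of 8 measured wax genes 1 was called higher, the ketoacyl reductase gene KCR1 with 321 reads in crwn1 crwn2 and 150 in wild type (1.01), and the list's median was 0.15. CER10, the enoyl reductase of fatty acid elongation, had 261 reads in crwn1 crwn2 and 138 in wild type (0.83) and was not called. Of 7 measured suberin genes 2 were called higher, KCS2 with 112 reads in crwn1 crwn2 and 41 in wild type (1.30) and FAR5 with 36 in crwn1 crwn2 and 13 in wild type (1.19), and the median was 0.84. KCS20, an elongase gene that was not called, had 903 reads in crwn1 crwn2 and 694 in wild type (0.30). None of 3 measured genes of mobile defence signals, the field of DIR1, was called, with a median of -0.01. GLY1, a glycerol-phosphate dehydrogenase of that list, had 52 reads in crwn1 crwn2 and 27 in wild type (0.80).

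Markers of several cell types also differed between the libraries. These lists are small too, beside 6.34% called higher and 4.53% lower over all measured loci. The shoot epidermis list, the site noted for LTP1, summed to 3449 reads in crwn1 crwn2 and 1690 in wild type. Of its 5 genes PDF1, which encodes a secreted protein of the outermost layer, was called higher, with 2057 reads in crwn1 crwn2 and 678 in wild type (log2 ratio 1.52), and FDH, a wax and cutin elongase of the epidermis, had 870 in crwn1 crwn2 and 647 in wild type (0.35). The list's median was 0.39. Of 6 measured root hair genes all 6 were called higher, with a median of 3.07. Over the 7 listed root hair genes there were 249 reads in crwn1 crwn2 and 14 in wild type. EXPA18 and EXPA7, both root hair expansins, had 24 and 14 reads in crwn1 crwn2 and 0 in wild type, and the wall protein genes PRP1 and PRP3 had 41 and 96 reads in crwn1 crwn2 and 1 and 7 in wild type.

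Endodermis genes summed to 150 reads in crwn1 crwn2 and 68 in wild type, and CASP1 and CASP2, which build the Casparian strip, were called higher at 1.59 and 1.08. PER64, a peroxidase gene of the endodermis, was not called, with 28 reads in crwn1 crwn2 and 17 in wild type (0.58). The 4 measured xylem genes had a median of 0.86 with none called, and 461 reads in crwn1 crwn2 against 261 in wild type over the list. XCP2, a xylem protease gene, had 172 reads in crwn1 crwn2 and 87 in wild type (0.89). The 4 guard cell genes had 263 reads in crwn1 crwn2 and 254 in wild type and a median of -0.01. FAMA, a regulator of guard cell fate, had 131 reads in crwn1 crwn2 and 121 in wild type (0.04). Of 6 mesophyll genes LHCB3, a light-harvesting protein gene, was called lower, with 1225 reads in crwn1 crwn2 and 2724 in wild type (-1.22), and the list's median was -0.02. PSBO1, a photosystem gene that was not called, had 9466 reads in crwn1 crwn2 and 10572 in wild type (-0.23). Of the 7 listed seed genes only 2 had reads in either library: SESA1, a storage albumin, had 1 in crwn1 crwn2 and 0 in wild type, and OLEO1, an oleosin of seed oil bodies, had 1 in crwn1 crwn2 and 5 in wild type. The part of these cell type differences in the lipid transfer results was not tested.

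The annotation names root among the organs of expression for 7 members. For many others it gives only a number of plant structures, and for AT5G46900, AT5G46890, AT4G12520 and others no organ was found. This is therefore not a full list of root-expressed members, and AT1G62500 is not on it. Of the 3 measured genes among these 7 none was called higher and AT4G22610 was called lower. Over the 7 there were 189 reads in crwn1 crwn2 and 180 in wild type. The other 4 were below the floor. Among them AT3G22570 had 9 reads in crwn1 crwn2 and 1 in wild type, and EDA4 (AT2G48140) had 7 in crwn1 crwn2 and 5 in wild type. AT1G73780 and AT4G22460 had 4 and 3 reads in crwn1 crwn2 and each was at 0 in wild type. The genes called higher include both LTP2, noted as absent from roots, and AT1G62500, the root cortex marker. The part of root tissue in these calls was not tested.

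**Figure D5:**
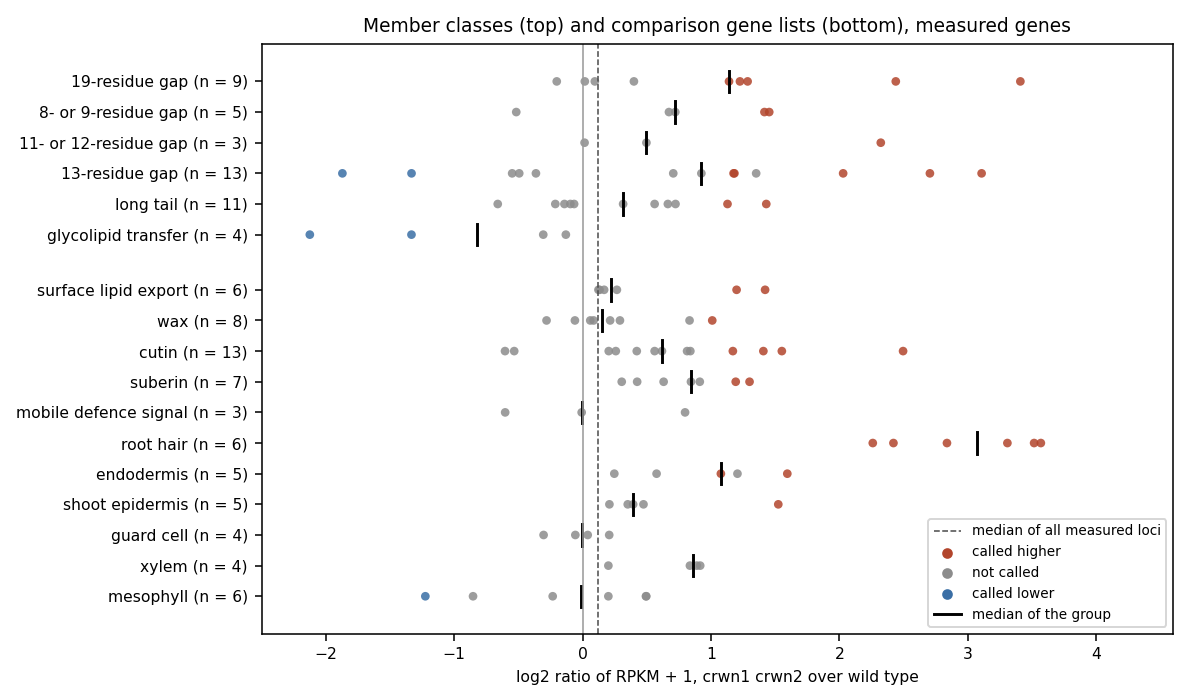
Log2 ratio of RPKM + 1, crwn1 crwn2 over wild type, of each measured gene (points, coloured by call) in the member classes (top) and the comparison lists (bottom), with the median of each group as a black bar. The dashed line is the median of all measured loci at 0.12; the 19-residue class has a median of 1.14, the cutin list 0.62, the root hair list 3.07 and the guard cell list -0.01.

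Short promoter windows were searched for known motifs on both strands, in the 250 bases before the start of each deposited model. These windows can include transcribed bases where the reference annotation starts a gene further upstream, as it does for LTP4. The L1 box TAAATGCA, bound by epidermal homeodomain proteins, was present in 1 of the 63 members, LTP4, and in 1.32% of 21677 windows of all loci. The letters TATAAA were present in 40 members (63.5%) and in 46.4% of all windows. The abscisic acid element core ACGTG occurred in 13 members (20.6%) and 26.1% of all windows, and the W box core TTGAC in 25 members (39.7%) and 44.8%. The G box CACGTG, which contains ACGTG, occurred in 3 members (4.76%) and 8.46% of all windows. Of the 15 members called higher, the L1 box was in 1 (6.67%), ACGTG in 3 (20%) and TTGAC in 7 (46.7%). In the same 15, CACGTG was in 0 and TATAAA in 10 (66.7%). With 15 windows, these shares were not read as differences from all loci. The windows of LTP3 and LTP4 share an exact run of 38 bases and those of LTP1 and LTP2 one of 19.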

How the data were processed

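RNA was extracted with Trizol and enriched for polyadenylated RNA before fragmentation and Illumina sequencing, per the labels' protocols. The deposited counts are uniquely placed reads per transcript model and sum to the total in each header, per the file headers. The authors' RPKM values divide these counts by model length and header total. The deposited coverage is the percent of a model covered by reads. The submitters' processing notes name TAIR10. No aligner, counting rule or strand is given in the labels or headers.

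Reads and RPKM were summed per locus. Of the members 10 have several listed models, whose shared reads may be uncounted. They are LTP7, LTPG2, LTPG6, XYP1, XYP2, EDA4, GLTP1, GLTP3, AT1G62790 and AT2G10940. Of the 6 measured genes among them none was called. The log2 ratio of RPKM + 1 understates differences of low genes. Read-ratio intervals are conditional binomial (Clopper-Pearson, 95%) at equal header totals, and reads copied by PCR make them too narrow. The calling rule was run on simulated counts that hold counting error only. They hold no spread between replicates, harvests or library preparations, so they cannot show how the calls stand against it. No p-value was computed.

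Coding sequences of all 63 members came from RefSeq (TAIR10.1) and were translated with Biopython 1.88, and 99.96% of 21639 loci compared overlapped the reference gene of the same identifier. Gaps of the cysteine pattern could hold 6 to 15, 6 to 80, 8 to 29, 8 to 37 and 4 to 25 residues. A tail was long from 40 residues, and a linker proline-rich from 25% proline over 20 residues or more.

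The members, the calling rule and the 12 lists (93 of 96 identifiers were verified, 3 were left out) were chosen with earlier results of these data known. Members named were those called, the 10 most abundant, the measured LTP, LTPG and DIR1 genes, and any with 10 reads against 0, of which there were none. From each list at most 3 called genes per direction and the most abundant uncalled measured gene were named. Other genes, such as EXPA7, SESA1, OLEO1, AT5G48490, AT4G12510, AT4G12545, AT2G44290, AT3G22142, AT3G53980 and those below the floor, were chosen after their values were seen.

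Alternatives changed the pseudocount to 0.1, the RPKM floor to 5 or none, the scaling to TMM (edgeR 4.0.16, factors 1.05 in crwn1 crwn2 and 0.954 in wild type) or to CPM, the loci to those with 1 listed model, and the threshold to 4-fold or 1.5-fold.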

Additional observations from a re-analysis of the deposited data

How the results depend on the processing

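Between 14 and 17 members were called higher under the other settings tried, against 15, except 6 with a 4-fold threshold and 12 among members with at least 90% unique stretches. Of the members, 4 were called lower, except 1 with a 4-fold threshold and 2 without the genes named glycolipid transfer protein. The median log2 ratio of measured members lay between 0.40 and 0.71, against 0.56. TMM scaling lowered log2 ratios by at most 0.14 and turned the split over all measured loci from 6.34% higher and 4.53% lower to 4.80% higher and 5.74% lower, with a median of -0.01. Under it AT3G22620 was no longer called, at 0.997, AT2G45180 stood at -0.50 against -0.36, and 3 of 33 named members, none of them called, changed sign. LTP1 at 1.005, and AT1G62500 and AT4G15160 at 1.05 each, stayed only just inside the 2-fold line. Small lists moved more: under TMM no wax gene and 1 endodermis gene were called higher, with an RPKM floor of 5 there were 2 cutin genes, and over lists and named genes 20 values moved and 366 did not. The restrictions to unique stretches and to genes without the glycolipid name were chosen after seeing the data. No paired analysis was possible because each genotype has 1 library. With a median of 26 reads per listed locus in crwn1 crwn2 and 24 in wild type, the intervals of weakly expressed members are wide.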
